A study of Mus musculus with 9 samples.

Results

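Matrix metalloproteinases (Mmp), ADAMTS proteases (Adamts) and their tissue inhibitors (Timp) were followed in neutrophils sorted from mouse skin, papillomas and carcinomas. Every gene whose name on the array starts with Mmp, Adamts or Timp followed by a digit was taken, which gave 46 of the 34797 gene names on the array. They were 23 Mmp, 19 Adamts and 4 Timp genes, read by 66 probes, of which 26 genes had 1 probe and 20 genes had 2. The value of a gene is the median over its probes on a log2 scale, so a difference of 1 is a doubling of signal, and levels are compared between samples and not between genes.

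Papilloma skin and tumor skin are the skin surrounding a papilloma or an established squamous cell carcinoma, and papilloma and tumor are the lesions themselves. Gr-1bright cells were sorted from the dissociated tissues of FVB/N mice. Mice of all 4 groups had received the carcinogen DMBA in weeks 6 and 13 of life. They had also received the phorbol ester PMA 2 times a week, in weeks numbered from 1 up to 18 to 20. The paper does not say that these PMA weeks are weeks of life. Because of both treatments, the skin groups are treated skin and not untouched controls. There were 2 arrays of papilloma skin, 2 of tumor skin, 3 of papilloma and 2 of tumor, and each array held RNA pooled from several mice. The arrays are the replicates here, and their number limits the precision of every value. Because RNA of sorted cells was pooled, fewer expressing cells and less RNA per cell cannot be told apart.

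Matrix metalloproteinases are zinc-dependent enzymes, mostly secreted as inactive proenzymes, that together can cleave nearly every component of the extracellular matrix. Neutrophils store Mmp8 and Mmp9 in granules that are filled while the cell matures in the bone marrow, and carry Mmp25 on their membrane. ADAMTS proteases are related secreted enzymes that cut proteoglycans, process procollagen or cleave von Willebrand factor, and TIMPs bind the active site of metalloproteinases one to one.

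The 9 markers of neutrophils that were on the array were well above background on all arrays of all 4 groups. Markers of other cells were also present, with 10 of 10 fibroblast markers well above background on every array and 10 of 10 keratinocyte markers on every array but those of tumor skin, where it was 9 of 10. A compressed signal range, with spike-in slopes of 0.678 to 0.894, was found for papilloma skin 1, tumor skin 1 and tumor 1, on which 90.7% to 95.0% of probes were well above background. The other 6 arrays had slopes of 1.04 to 1.06 and 44.2% to 64.2% of probes well above background. In the deposited value table, only 5 of 9 columns ranked closest to the scanner file of their own label. Across genes, the columns papilloma skin 1 and tumor 1 had a Spearman's rho of 0.584 and 0.825 with their own file and were closest to that of tumor 2, and the columns papilloma 2 and papilloma 3 were each closest to the other's file. Values below are from the value table, and changes of the called genes are also given without papilloma skin 1 and tumor 1.

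Of the 46 genes, 22 had a mean log2 level of at least 6 over the 9 arrays. Probes of 14 genes were well above background on all 9 arrays, among them Mmp2, Mmp7, Mmp8, Mmp9, Mmp17, Mmp19, Mmp25, Adamts1, Adamts2, Timp1, Timp2 and Timp3. On the 6 arrays without compression, 9 genes were never well above background, and these included Mmp1a, Mmp16, Mmp21, Mmp28, Adamts3 and Adamts6. The 24 genes under the level minimum had mean levels from 4.95 to 5.98.

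A gene was called when 3 thresholds were met. The p of limma, adjusted after Benjamini-Hochberg over all genes of the array and given as adjusted p throughout, had to be 0.05 or less, the fold change had to reach 1 on the log2 scale in either direction, and the mean log2 level had to reach 6. Each lesion was set against its own skin, which is called the tumor stage for tumor versus tumor skin and the papilloma stage for papilloma versus papilloma skin. At the tumor stage 4 of the 46 genes were called, beside 4.36% of all genes. Mmp3, Mmp13 and Adamts4 rose there and Mmp8 fell, beside 2.75% of all genes called higher and 1.61% lower. At the papilloma stage 5 genes were called, beside 3.60% of all genes. Mmp11, Adamts1, Adamts2 and Adamts4 rose and again Mmp8 fell, beside 2.43% of all genes called higher and 1.17% lower. Between the lesions 3 genes were called, beside 0.606% of all genes. These were Mmp11, Adamts2 and Adamts4, all lower in tumor than in papilloma, beside 0.460% of all genes called lower and 0.147% higher. The latter comparison shares the papilloma arrays with the one before it. The plot of the 46 genes at the 2 stages shows which genes carried the changes and how many stayed near 0.

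**Figure D1:**
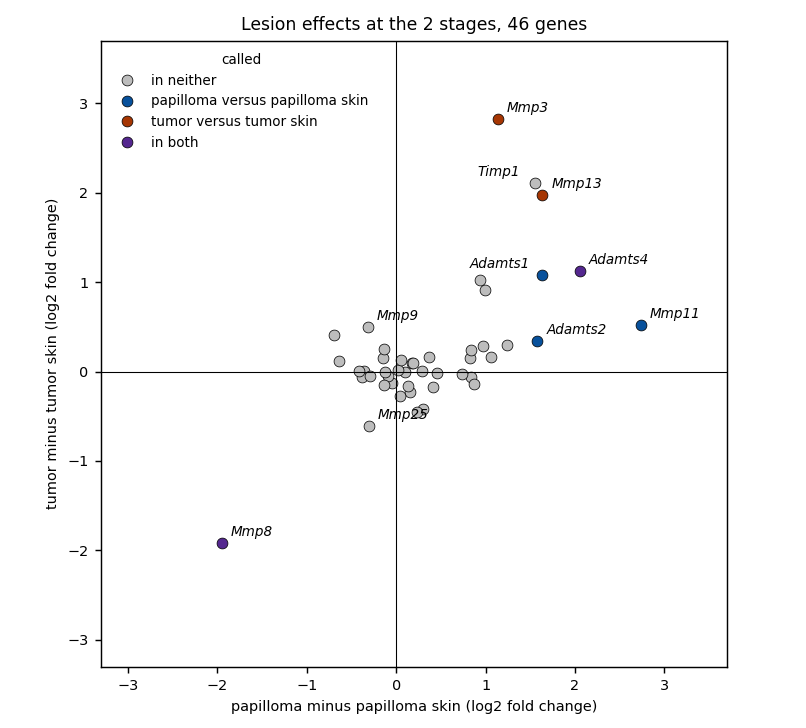
Log2 fold change of papilloma over papilloma skin (horizontal) against tumor over tumor skin (vertical), 1 point for each of the 46 genes, with color for the comparison in which a gene was called. Mmp8 lies at the lower left with falls of 1.95 and 1.92, Mmp11 far to the right at 2.74 against 0.52, and Mmp3 high at 2.82 against 1.14.

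The median log2 fold change of the 46 genes was 0.06 at the tumor stage and 0.21 at the papilloma stage, with -0.01 over all genes in each. In the 22 genes above the level minimum it was 0.29 and 0.85, beside 0.07 and 0.01 for all genes above it. The minimum is set on a mean over skin and lesion arrays together, so a gene high only in lesions can pass it. How far this raised the medians of the 22 genes was not tested. All papilloma arrays lay above all papilloma skin arrays for 21 genes and below them for 8, beside 19.9% and 18.4% of all genes. Tumor lay above tumor skin in this way for 12 genes and below it for 7, beside 26.2% of all genes in either direction. Tumor lay above papilloma for 8 genes and below it for 19, beside 18.9% and 17.9% of all genes.

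Without the columns papilloma skin 1 and tumor 1, each of these groups keeps 1 array, so its own spread is not measured and only changes are given. At the tumor stage they were 3.48 for Mmp3, 2.69 for Mmp13, 1.35 for Adamts4 and -2.34 for Mmp8. At the papilloma stage they were 2.95 for Mmp11, 2.10 for Adamts1, 1.81 for Adamts2, 2.20 for Adamts4 and -2.15 for Mmp8. Between tumor and papilloma they were -2.19 for Mmp11, -1.29 for Adamts2 and -0.99 for Adamts4. No alternative setting turned the direction of a called gene.

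Mmp8, the neutrophil collagenase, was lower in both kinds of lesion than in their skin. Its log2 level was 12.54 and 12.94 in papilloma skin, 14.22 and 13.83 in tumor skin, 10.62, 10.94 and 10.80 in papilloma, and 12.52 and 11.69 in tumor. The 2 tumor skin arrays were the highest, the 3 papilloma arrays were the lowest, and lesions and their skin did not overlap. The log2 fold change was -1.92 at the tumor stage (SE 0.287, adjusted p = 0.00726) and -1.95 at the papilloma stage (SE 0.262, adjusted p = 0.00461), a level 3.78 and 3.87 times lower. The 2 effects differed by 0.03 (SE 0.389, adjusted p = 0.981). Tumor skin stood above papilloma skin by 1.29 and tumor above papilloma by 1.32, with adjusted p of 0.0793 and 0.0698, so that neither passed the test. With slides taken from the scanner file of each label, arrays of 1 slide differed by -1.69 between tumor and tumor skin on slide 1. Between papilloma and papilloma skin they differed by -1.92 and -1.997 on slides 1 and 2. Each of these values uses a column that ranked closest to another array's file, so its slide is uncertain, and all are of the arrays that gave the calls.

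Some other genes of neutrophil granules, Ngp, Camp and Ltf, fell at both stages as Mmp8 did, and others did not. The granule gene Mmp9 had a change of 0.49 at the tumor stage without a call, and Lcn2 was called lower at the tumor stage only. Of the 9 neutrophil markers 4 fell at the tumor stage, the surface marker Ly6g beside Ngp, Camp and Ltf, and 3 at the papilloma stage, Ngp, Camp and Ltf. Of all genes 1.61% and 1.17% were called lower at these stages. The median log2 fold change of the 9 was -0.94 and -0.88. Their summed log2 level was 20.1 on both arrays of tumor skin, 19.9 in papilloma skin, 19.8 in tumor and 19.6 in papilloma. The part of this in the fall of Mmp8 was not tested.

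Mmp9, the gelatinase stored in neutrophil granules, had no call in any comparison. Its level was 12.35 and 12.54 in papilloma skin, 13.48 and 12.53 in tumor skin, 11.64, 12.41 and 12.34 in papilloma, and 13.64 and 13.36 in tumor. Lesions and skin overlapped at both stages. The tumor arrays lay above the papilloma arrays by 1.37 on the log2 scale (SE 0.318, adjusted p = 0.106). The plot of single arrays shows Mmp8 and Mmp9 side by side, where skin and lesion separate for Mmp8 and overlap for Mmp9.

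**Figure D2:**
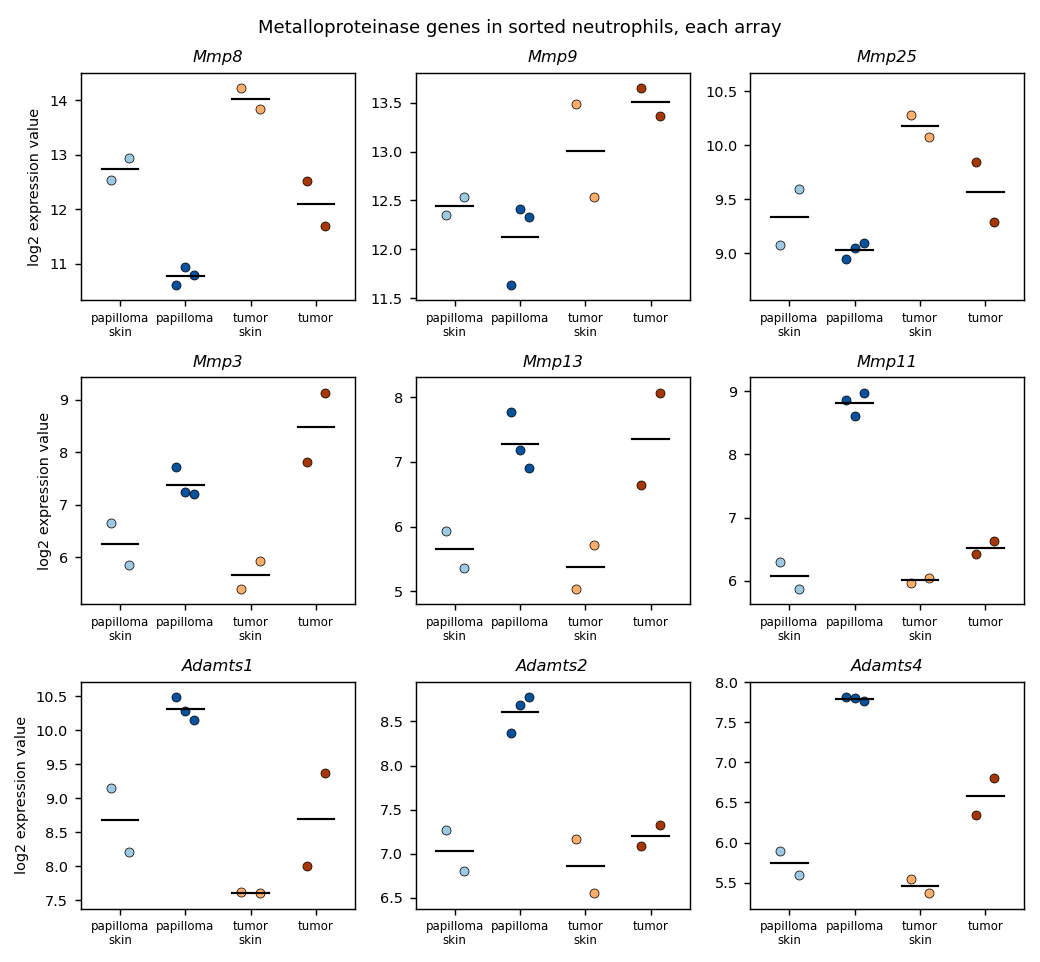
Log2 expression value of 9 metalloproteinase genes, with 1 point per array and a line at the group mean, for papilloma skin (2 arrays), papilloma (3), tumor skin (2) and tumor (2); the vertical axes differ between genes and do not start at 0. Mmp8 is lowest in papilloma, Mmp3 highest in tumor, and Mmp11, Adamts2 and Adamts4 are highest on the 3 papilloma arrays.

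Mmp25, a membrane-type enzyme of leukocytes, measured 9.07 and 9.60 in papilloma skin, 10.28 and 10.08 in tumor skin, 8.95, 9.05 and 9.09 in papilloma, and 9.84 and 9.29 in tumor. Tumor skin was the highest group, as for Mmp8. The difference to tumor was -0.61 (SE 0.230, adjusted p = 0.132), and that between papilloma and papilloma skin was -0.30 (SE 0.210, adjusted p = 0.461), with 1 papilloma skin array inside the range of papilloma. Neither passed the test. The other gelatinase, Mmp2, known from fibroblasts, had values of 8.67, 7.86 and 8.33 in papilloma and of 6.21 and 7.36 in tumor. That difference of -1.50 (SE 0.418) had an adjusted p of 0.164. The low value of 6.21 is in the column of tumor 1, without which, and without papilloma skin 1, the difference was -0.93. In the quantile-normalized scanner data Mmp2 was 9.64 and 7.68 in tumor and 9.16, 8.72 and 7.65 in papilloma, so that the groups overlapped.

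Mmp13, a collagenase of stromal and tumor cells, and Mmp3, or stromelysin, an enzyme that cleaves many matrix proteins and activates other proenzymes, were the Mmp genes that rose at the tumor stage. Mmp3 had levels of 5.39 and 5.92 in tumor skin and 7.82 and 9.14 in tumor, with 6.65 and 5.86 in papilloma skin and 7.73, 7.24 and 7.20 in papilloma. Every lesion array exceeded every skin array, and tumor 2 was the highest. Mmp3 was 7.06 times higher in tumor than in tumor skin (log2 difference 2.82, SE 0.446, adjusted p = 0.00885). At the papilloma stage its change of 1.14 (SE 0.407) had an adjusted p of 0.149, and the effects at the 2 stages differed by 1.68 (SE 0.604, adjusted p = 0.28), so that a difference between the stages was not shown. Without tumor 2 the change of Mmp3 in tumor was 2.16, a value that rests on tumor 1 alone.

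Mmp13 had levels of 5.03 and 5.72 in tumor skin, 6.64 and 8.07 in tumor, 5.94 and 5.36 in papilloma skin, and 7.77, 7.18 and 6.90 in papilloma. The lesion arrays lay above the skin arrays at both stages, and tumor and papilloma overlapped. The log2 fold change was 1.98 at the tumor stage (SE 0.488, adjusted p = 0.0408), and 1.63 at the papilloma stage (SE 0.446), where the adjusted p was 0.0685. Leaving out tumor 2 lowered the change in tumor to 1.26, and leaving out tumor 1 raised it to 2.69, each resting on 1 tumor array. The call was lost in 7 of the 9 fits with 1 array left out. Mmp3 and Mmp13 were each well above background on both tumor arrays and all papilloma arrays but on only 1 of 2 arrays of each skin group, the one with a compressed signal range, so that the skin levels are near the floor of the array.

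Keratinocyte markers were higher on the arrays on which Mmp3 and Mmp13 were high. Of 10 keratinocyte markers 4 rose at the tumor stage, Krt14, Krt6a, Krt6b and Krt16, and 3 at the papilloma stage, Krt6a, Krt6b and Krt16. Of all genes 2.75% and 2.43% were called higher at these stages. The summed log2 level of the list ran from 12.1 to 13.1 in tumor skin, 14.02 to 15.7 in tumor, 12.1 to 13.0 in papilloma skin and 13.5 to 14.7 in papilloma. All 10 of these markers were well above background on every tumor and papilloma array. Stromal and vessel markers moved at the tumor stage too. Of 10 fibroblast markers Fap rose by 1.504 and Sparc by 2.49 while Dcn fell by 1.38, of 7 smooth muscle and pericyte markers Rgs5 rose by 2.21 and Pdgfrb by 1.68, and of 6 endothelial markers Cdh5 rose by 2.39. The part of any of these in the rise of the 2 enzymes was not tested.

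Mmp3, Mmp13 and Mmp8 are neighbors in a cluster of 10 Mmp genes on chromosome 9, whose probes span 414.879 kb in mm9, the build of the probe positions. From one end to the other they are Mmp13, Mmp12, Mmp1b, Mmp3, Mmp1a, Mmp10, Mmp8, Mmp27, Mmp20 and Mmp7. The Mmp13 probe lies at 7282762 to 7282821, the Mmp3 probe at 7455751 to 7455810 and the Mmp8 probe at 7568238 to 7568297. The cluster did not move as a block at the tumor stage, as the plot along the chromosome shows, since Mmp3 and Mmp13 rose and Mmp8 fell. The other 7 genes had no call. Of these, Mmp12, Mmp1b, Mmp1a, Mmp27 and Mmp20 had mean levels of 4.95 to 5.98, under the level minimum, and could not be called. Mmp1a and Mmp20 were never well above background on the 6 arrays without compression. Mmp10, a second stromelysin that lies between Mmp1a and Mmp8, had a change of 1.03 in tumor (SE 0.316, adjusted p = 0.078) and 0.93 in papilloma (SE 0.288, adjusted p = 0.101). The other 6 genes without a call had changes between -0.16 and 0.26 in tumor and between -0.29 and 0.36 in papilloma.

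**Figure D3:**
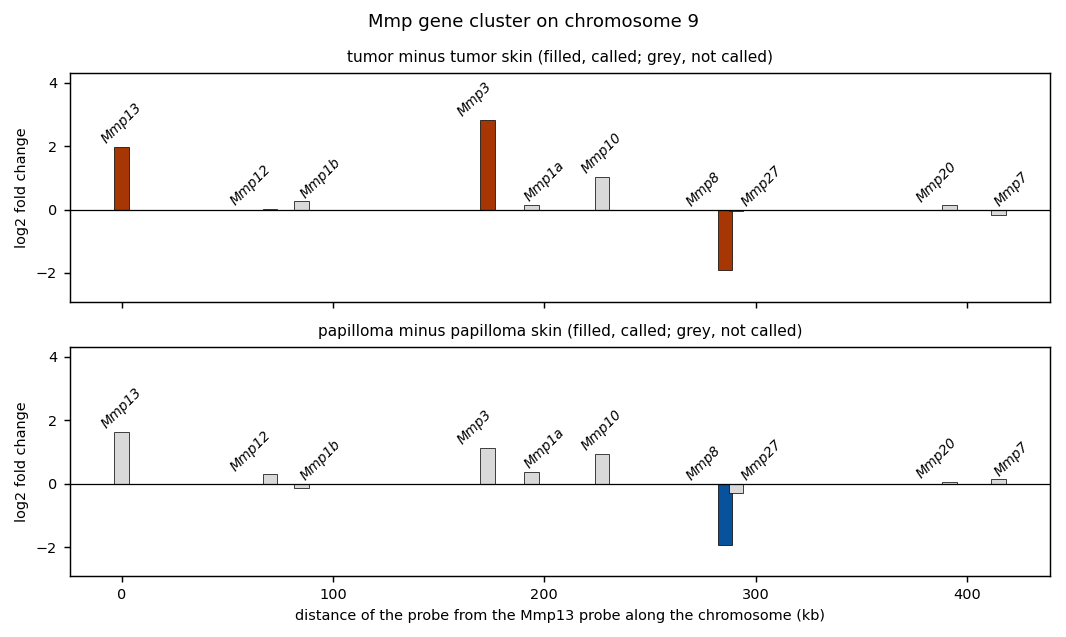
Log2 fold change of the 10 Mmp genes of the chromosome 9 cluster against the distance of their probes from the Mmp13 probe in kb, with tumor over tumor skin above and papilloma over papilloma skin below, and called genes in color. In tumor Mmp13 and Mmp3 stand at 1.98 and 2.82, Mmp8 at -1.92, and the genes between and beyond them near 0 except Mmp10 at 1.03.

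PMA, with which all mice were treated, is known to act through the transcription factor AP-1, whose site is TGACTCA or, read on the other strand, TGAGTCA. These letters were searched in the 250 bases before the start of each gene in RefSeq promoters of GRCm38.p6, a search in which the 2 forms are the same site on either strand. Promoters were given for 32 of the 46 genes. The letters occurred in 7 genes, Mmp1a, Mmp1b, Mmp3, Mmp7, Mmp10, Mmp12 and Mmp13, or 21.9%, and in 5.16% of all 27025 genes with a promoter. All 7 belong to the cluster on chromosome 9, and none of the 22 genes outside it that had a promoter held a match. For Mmp7 and Mmp12 the match was in 1 of the promoters listed and not in the other. Shown are 50 bases around the match for the cluster genes whose levels rose most, for Mmp12, which holds the letters and was not called, and the matching stretch for Mmp8, which fell and holds none. Capitals mark the match, which starts 35 bases before the gene start in Mmp13, 46 in Mmp3, 63 in Mmp10 and 44 in Mmp12. The positions are those of GRCm38.p6, plus strand, and are not comparable with mm9.
Mmp13, chr9:7272457-7272506: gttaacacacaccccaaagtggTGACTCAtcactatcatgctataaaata
Mmp3, chr9:7445754-7445803: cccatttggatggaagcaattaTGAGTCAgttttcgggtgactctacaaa
Mmp10, chr9:7502257-7502306: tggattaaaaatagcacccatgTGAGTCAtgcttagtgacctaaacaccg
Mmp12, chr9:7347308-7347357: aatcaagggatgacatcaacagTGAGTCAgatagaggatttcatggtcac
Mmp8, chr9:7558372-7558421: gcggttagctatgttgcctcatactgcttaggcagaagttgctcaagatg

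Of the 7 genes that hold the letters, Mmp3 and Mmp13 were called at the tumor stage. Of the others, Mmp10 had a change of 1.03 there, Mmp1b of 0.26 and Mmp1a of 0.16. Mmp12, the macrophage elastase, changed by 0.01 in tumor and 0.29 in papilloma, and its level was between 4.92 and 5.50 on all 9 arrays. Mmp7, or matrilysin, had levels from 7.80 to 8.89 and changes of -0.16 and 0.13. Mmp11, Adamts1 and Adamts2, which rose in papilloma, had promoters without the letters, and so did Timp1. Adamts4, which also rose in papilloma, was among the genes for which no promoter was given and was not searched, as were Mmp2 and Mmp9. Mmp1a, Mmp1b and Mmp12 were under the level minimum and could not be called. Mice of all groups, skin and lesion, had received PMA, and the part of AP-1 in any of these changes was not tested.

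Mmp11, a stromelysin known from the stroma around carcinomas, was the gene that most clearly set papilloma apart. Its level was 6.29 and 5.87 in papilloma skin, 5.97 and 6.04 in tumor skin, 8.86, 8.61 and 8.98 in papilloma, and 6.42 and 6.63 in tumor. The 3 papilloma arrays stood well clear of all others, and tumor was slightly above tumor skin without overlap. Mmp11 was 6.66 times higher in papilloma than in papilloma skin (log2 difference 2.74, SE 0.174, adjusted p = 0.000196). It was lower in tumor than in papilloma by -2.29 (SE 0.174, adjusted p = 0.00228), and at the tumor stage its change of 0.52 (SE 0.190) had an adjusted p of 0.125.

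The lesion effect of Mmp11 differed between the stages by -2.22 (SE 0.258, adjusted p = 0.0322), the only call among the 46 genes for that difference. Over all genes 0.0891% were called, 0.0632% with a lower and 0.0259% with a higher effect in tumor. Leaving out any 1 of the 9 arrays took this adjusted p to between 0.0803 and 0.136, so the call on the difference rests on all of them. The calls of Mmp11 at the papilloma stage and between the lesions were kept in all 9 such fits. Both of its probes, near 75386024 and 75386209 on chromosome 10 of mm9, rose in papilloma, by 2.92 and 2.55, although with probes as the unit neither had a call for the stage difference (adjusted p = 0.0783 and 0.0782). With slides taken from the scanner file of each label, arrays of 1 slide differed by 2.57 and 2.74 between papilloma and papilloma skin. Between tumor and papilloma they differed by -2.44 and -1.98. As for Mmp8, each value uses a column of uncertain slide, and all are of the arrays that gave the calls.

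Of the 7 ADAMTS genes that cleave proteoglycans Adamts1 and Adamts4 were called, and of the 3 that process procollagen Adamts2 was. Adamts4, an aggrecanase, had levels of 5.90 and 5.59 in papilloma skin, 5.55 and 5.37 in tumor skin, 7.82, 7.80 and 7.77 in papilloma, and 6.34 and 6.81 in tumor. Papilloma was highest, tumor was between papilloma and skin, and these groups did not overlap. Its log2 fold change was 2.05 at the papilloma stage (SE 0.171, adjusted p = 0.000574), 1.12 at the tumor stage (SE 0.187, adjusted p = 0.0107) and -1.22 between tumor and papilloma (SE 0.171, adjusted p = 0.0207). The 2 probes disagreed in tumor, where one rose by 1.998 and the other had a change of 0.24 with an adjusted p over all probes of 0.554, while in papilloma they rose by 2.69 and 1.41. Leaving out tumor skin 2 or tumor 2 ended the call at the tumor stage.

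Adamts1, a protease induced by inflammation that cleaves versican and aggrecan, had levels of 9.14 and 8.21 in papilloma skin, 7.62 and 7.60 in tumor skin, 10.49, 10.29 and 10.15 in papilloma, and 8.01 and 9.37 in tumor. It rose at the papilloma stage by 1.63 (SE 0.398, adjusted p = 0.0462), and its change of 1.08 at the tumor stage (SE 0.436) had an adjusted p of 0.157. The call in papilloma was lost in 7 of 9 fits with 1 array left out, and without papilloma skin 2 the change was 1.17. Adamts7, Adamts8 and Adamts9 passed the test but not all thresholds at the papilloma stage, and were picked for mention after their values were seen. Adamts8 had a change of 0.98 (SE 0.118, adjusted p = 0.00302) and Adamts9 of 0.99 (SE 0.168, adjusted p = 0.0117), both short of the fold threshold. Adamts9 also had a change of 0.91 at the tumor stage (SE 0.184, adjusted p = 0.0213) and a mean level of 5.65, under the level minimum. Adamts7 had a change of 1.06 (SE 0.225, adjusted p = 0.0272) with a mean level of 5.57, also under the level minimum. Its measured level was 2.09-fold higher in papilloma, while no skin array was well above background, so that its skin level is near the floor.

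Adamts2, which removes the amino-terminal propeptide of procollagen, had levels of 7.27 and 6.80 in papilloma skin, 7.17 and 6.55 in tumor skin, 8.37, 8.68 and 8.78 in papilloma, and 7.09 and 7.32 in tumor. The papilloma arrays lay above all others, and tumor overlapped with tumor skin. It rose by 1.58 at the papilloma stage (SE 0.234, adjusted p = 0.00654) and was lower in tumor than in papilloma by -1.41 (SE 0.234, adjusted p = 0.0391). The 2 probes rose by 2.33 and had a change of 0.82 in papilloma, and only the former passed the test over all probes. The call between the lesions was lost in 7 of the 9 fits with 1 array left out, and in the quantile-normalized scanner data tumor 1, at 8.53, lay inside the papilloma range of 8.05 to 8.68. None of the 9 remaining ADAMTS genes without a proteoglycan or procollagen role, Adamts7 among them, reached a mean level of 6, and none was called.

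Mmp11, Adamts2 and Adamts4 were highest in papilloma, where markers of smooth muscle cells and pericytes were also highest. At the tumor stage Adamts4 rose, and 4 of the 7 markers were higher, with a median change of 0.13. Rgs5 and Pdgfrb were called there, both higher. The summed level of the 7 was lower in tumor than in tumor skin. All 7 of these markers, Acta2, Tagln, Myh11, Rgs5, Pdgfrb, Cspg4 and Actg2, rose at the papilloma stage with a median change of 1.85, beside 2.43% of all genes called higher. All 7 were lower in tumor than in papilloma with a median of -1.99, beside 0.460% of all genes called lower. For the difference between stages 4 of them had a call, as Mmp11 did, beside 0.0632% of all genes with a lower effect in tumor. Their summed log2 level was 13.6 to 13.8 in papilloma, 11.8 to 12.1 in papilloma skin, 11.98 to 12.06 in tumor skin and 11.6 to 11.7 in tumor, and all 7 were well above background on every papilloma array. Fibroblast markers were also highest in papilloma, at 15.6 to 16.0, beside 14.2 to 14.9 in papilloma skin, 13.6 in tumor skin and 13.4 to 14.3 in tumor, although only Sparc of the 10 was called at the papilloma stage. Of the 6 endothelial markers Pecam1, Cdh5 and Emcn rose in papilloma. The part of these cells in the values of Mmp11, Adamts1, Adamts2 and Adamts4 was not tested.

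The inhibitors had no call in any comparison. Timp1, an inducible inhibitor of most soluble metalloproteinases, had levels of 9.14 and 7.59 in papilloma skin, 5.69 and 6.71 in tumor skin, 10.38, 9.22 and 10.16 in papilloma, and 7.95 and 8.67 in tumor. Lesions lay above their skin at both stages without overlap, papilloma was highest and tumor skin lowest, and the ranges of tumor and papilloma skin overlapped. In the quantile-normalized scanner data lesions and skin were also apart, but tumor at 12.42 and 8.66 overlapped with papilloma at 10.46, 9.97 and 9.40, and papilloma skin 1 was at 2.77. The changes were 2.11 at the tumor stage (SE 0.593, adjusted p = 0.0603) and 1.56 at the papilloma stage (SE 0.542, adjusted p = 0.138). The papilloma skin arrays differed most within a group, and when either papilloma skin array was left out Timp1 was called at the tumor stage.

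**Figure D4:**
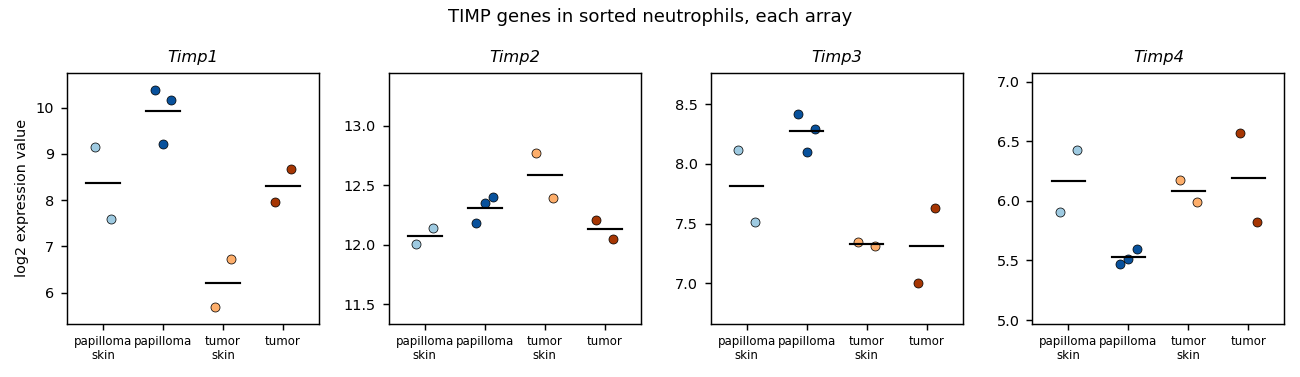
Log2 expression value of the 4 Timp genes, with 1 point per array and a line at the group mean, for papilloma skin (2 arrays), papilloma (3), tumor skin (2) and tumor (2); the vertical axes differ between genes and do not start at 0. Timp1 spans 5.69 to 10.38 over the arrays, while Timp2 stays between 12.01 and 12.77.

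Timp2, which also takes part in the activation of pro-Mmp2, had 12.01 and 12.14 in papilloma skin, 12.77 and 12.39 in tumor skin, 12.18, 12.35 and 12.40 in papilloma, and 12.21 and 12.05 in tumor. Its change was -0.45 at the tumor stage (SE 0.169, adjusted p = 0.132) and 0.24 at the papilloma stage (SE 0.154, adjusted p = 0.431). Timp3, which is held in the matrix and also inhibits ADAM and ADAMTS proteases, had 8.12 and 7.51 in papilloma skin, 7.34 and 7.31 in tumor skin, 8.42, 8.10 and 8.29 in papilloma, and 6.9998 and 7.63 in tumor. Tumor was below papilloma without overlap, by -0.96 (SE 0.236, adjusted p = 0.124). Timp4 had 5.90 and 6.43 in papilloma skin, 6.18 and 5.99 in tumor skin, 5.47, 5.51 and 5.59 in papilloma, and 6.57 and 5.82 in tumor. It was not well above background on any papilloma array, so that its level there is near the floor. The measured level was 1.56-fold higher in papilloma skin, a difference that did not pass the test (adjusted p = 0.164).

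None of the 6 membrane-type genes Mmp14, Mmp15, Mmp16, Mmp17, Mmp24 and Mmp25 and none of the 6 further Mmp genes Mmp19, Mmp20, Mmp21, Mmp23, Mmp27 and Mmp28 was called in any comparison with all 9 arrays in the fit. Of these, Mmp15, Mmp16, Mmp20, Mmp21, Mmp24, Mmp27 and Mmp28 were under the level minimum and could not be called. At the papilloma stage the membrane-type Mmp15 and Mmp17 had adjusted p of 0.0253 and 0.0187 with changes of 0.82 and 0.87, under the fold threshold. The mean level of Mmp15, 5.43, was under the level minimum too. The 39 genes called in no comparison had changes between -0.61 and 2.11 at the tumor stage and between -0.69 and 1.56 at the papilloma stage, with Timp1 at the top of both.

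Tumor skin and papilloma skin were compared as well, which asks whether the surroundings of the lesions differ. None of the 46 genes was called by limma, beside 0.376% of all genes, of which 0.195% were higher and 0.181% lower in tumor skin, and 11 of the 46 had an unadjusted p under 0.05, beside 22.2% of all genes. Tumor skin lay above papilloma skin on all arrays for 10 genes and below it for 13, beside 24.0% and 25.2% of all genes. The largest differences were those of Timp1 at -2.16 (SE 0.593, adjusted p = 0.113) and of Mmp8 given above.

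Of 31 genes that activate, bind or induce these enzymes, chosen as a list of the pathway, 22 reached the level minimum. At the tumor stage 2 rose, Plau and Bsg, and 1 fell, Lcn2, beside 2.75% of all genes called higher and 1.61% lower. At the papilloma stage 4 rose, Plau, Plat, Serpine2 and Bsg, beside 2.43% of all genes called higher. None was called between the lesions, between the skin groups or for the stage difference, beside 0.606%, 0.376% and 0.0891% of all genes. Plau, or urokinase, which makes plasmin, an activator of pro-Mmp3, rose by 1.43 (SE 0.285, adjusted p = 0.0208) in tumor and 1.76 (SE 0.260, adjusted p = 0.00654) in papilloma. Bsg, a membrane protein known to induce metalloproteinases in neighboring cells, rose by 2.38 (SE 0.344, adjusted p = 0.00655) and 1.83 (SE 0.314, adjusted p = 0.0123). Lcn2, a granule protein that binds Mmp9, fell by 1.46 in tumor (SE 0.254, adjusted p = 0.0122) and had a change of -0.15 in papilloma (adjusted p = 0.778). None of the 9 ADAM proteases, the 4 proprotein convertases or the 6 other inhibitors was called, and 8, 3 and 1 of these reached the level minimum.

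The size of the called changes depended on the source, and their direction did not. Signals read from the scanner files with quantile normalization kept the groups of 11 of the 12 called pairs apart. The value table did so for all 12, but these pairs had been chosen by their calls in it, and both sources are of the same arrays. In the table, groups were apart for 17.9% to 26.2% of all genes in each direction of these comparisons. The share of all genes in the scanner files was not computed. In those files the rise of Mmp3 at the tumor stage was 3.45 to 5.57 over 5 ways of normalizing and of handling slides and compressed arrays, beside 2.82 in the table, and that of Mmp11 in papilloma was 1.73 to 4.26, beside 2.74. The difference of Mmp11 between the stages was -2.53 to -0.19 in the scanner files, with adjusted p of 0.42 or more. Adamts4 at the papilloma stage ranged from 0.98 to 3.76 there, beside 2.05 in the table. With slide in the model, the scanner files gave a call for 0 of the 46 genes and 0 of all 34566 genes in every comparison, while 8 of the 46 at the tumor stage and 16 at the papilloma stage had an unadjusted p under 0.05 after quantile normalization, beside 2.45% and 11.9% of all genes.

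**Figure D5:**
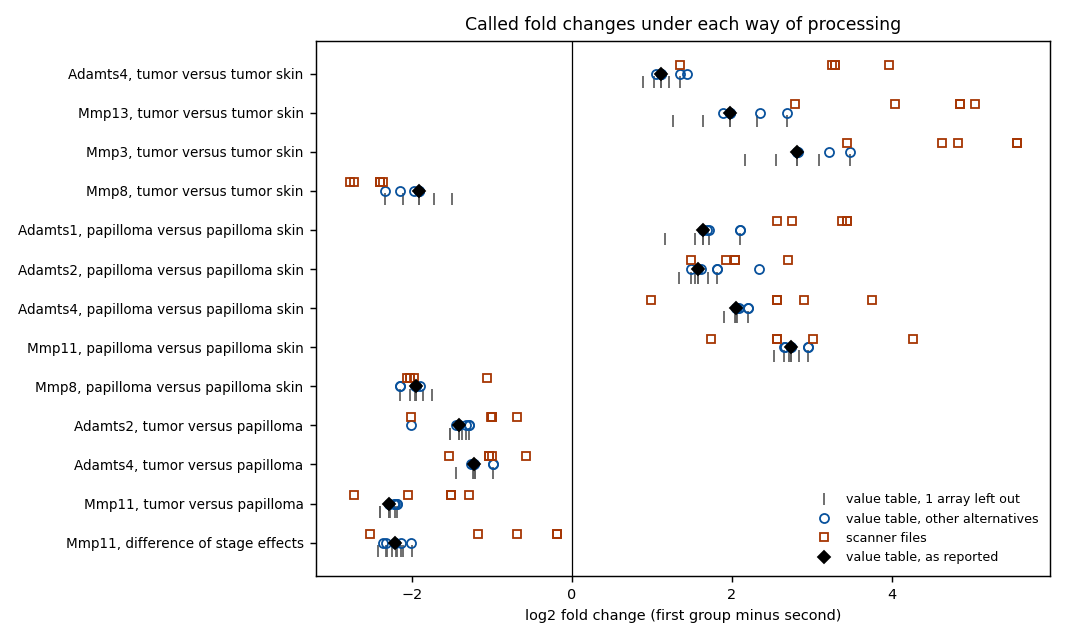
Log2 fold change of the 13 called values in the value table (filled diamonds) beside fits of the table with 1 array left out (ticks), other fits of the table (open circles) and fits of the scanner files (open squares). All points lie on the same side of 0 as the reported value, and the scanner files spread most, with Mmp3 reaching 5.57 and the stage difference of Mmp11 falling to -0.19.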

How the data were processed

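Cy3-labeled RNA of sorted neutrophils had been hybridized to single-color Agilent mouse arrays, 9 in all, on 3 slides. The authors deposited, for each array, log2 values of all probes. Quantile normalization by limma and a ComBat correction for chips are named in their methods, but whether the deposited log2 values hold both is not given in the sources used here. They also deposited scanner output with a background-subtracted fluorescence intensity per spot, not scaled between arrays. Compressed arrays and mismatched columns can change the values of either source, and depth is not defined for arrays.

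Gene medians over probes of the table were fitted in limma 3.58.1 under R 4.3.3, with a mean for each of 4 groups and 5 residual degrees of freedom, after the script had been tested on simulated data. Adjusted p-values are limma's, after Benjamini-Hochberg over all 34797 genes. Alternatives concern the source, background correction (normexp, offset 50), scaling, slide, replicate block, filters, probes as the unit and single arrays.

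The genes, lists, tests and the motif were chosen with earlier results of these data known. Values per array are given for each gene called in any comparison and for Mmp8, Mmp9, Mmp25 and the 4 Timp genes. Probe positions are those of the scanner files, in mm9, and exons or UTRs were not assigned. RefSeq accessions were given for 61 probes, and 59 of these were found in the reference, all under the same symbol. Labels do not say that arrays of a group came from separate mice, so p-values measure the spread between arrays. Tables and plots were made with matplotlib 3.10.9, numpy 2.4.6, pandas 2.3.3, Python 3.11.15 and the package data.table (version 1.17.8).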

Additional observations from a re-analysis of the deposited data

Results flagged for a closer look

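The lesion effect on Mmp11 differed between the stages by -2.22 on the log2 scale (SE 0.258, limma adjusted p = 0.0322 over all genes), with a rise of 2.74 in papilloma and a change of 0.52 in tumor. It was 1 of 46 genes tested for this difference.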

How the results depend on the processing

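With slide as a term in the model, scanner files gave 0 called genes in all comparisons after quantile, 75th percentile and normexp with quantile normalization alike, where 0 of all genes were called too, and the value table gave 0 at the tumor stage (beside 0.583% of all genes), 4 at the papilloma stage (Adamts4, Adamts8, Mmp11 and Mmp8, beside 2.2% of all genes), 0 in tumor versus papilloma and 0 for the difference between the stages. When slide means were removed from the scanner data first, the counts were 3 at the tumor stage and 5 at the papilloma stage, beside 0.0723% and 1.78% of all genes, and 0 in tumor versus papilloma and 0 for the stage difference. The 6 scanner files with a full spike-in slope gave 0 in each, and the 6 matching columns of the table, an alternative chosen after seeing the data, gave 5 at the tumor stage and 9 at the papilloma stage, beside 3.11% and 3.8% of all genes, 1 in tumor versus papilloma and 0 for the stage difference. Without papilloma skin 1 and tumor 1 the count was 0 in tumor versus papilloma and 0 for the stage difference, and with probes as the unit it was 0 for the latter. Replicate numbers were not taken to pair the samples, since deviations from the group means correlated between -0.93 and 0.43 over 12 pairs of the same number. For lesions and their own skin, with 2 pairs a stage, the values were 0.310 for both pairs of tumor and 0.140 and 0.431 for papilloma, and in groups of 2 arrays the deviations mirror each other, so a shared source of same-numbered arrays was not settled by this check. With the replicate block, 0 genes were called at the tumor stage, 2 at the papilloma stage (Adamts4 and Mmp11), beside 1.67% and 1.26% of all genes, 0 in tumor versus papilloma and 0 for the stage difference.

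With 1 array left out, the counts ran from 2 to 6 at the tumor stage, 4 to 6 at the papilloma stage, 1 to 3 in tumor versus papilloma, 0 to 0 in tumor skin versus papilloma skin and 0 to 0 for the stage difference. Over all genes they ran from 603 to 1534, 910 to 1305 and 45 to 220 in the first 3 of these. The count at the tumor stage was 2 without tumor skin 2 or tumor 2 and 6 without tumor 1, and that in tumor versus papilloma was 1 without tumor 1 or any papilloma array. Of 268 values of called genes under 21 alternatives, 144 kept the call, 124 lost it and 0 changed direction. The cause was not tested. In a group of 2 arrays, leaving 1 out kept only 1, so the spread in such a fit came from the other groups. Scaling to the 75th percentile moved the median of all genes by -0.34 at the papilloma stage and by 0.28 in tumor versus papilloma and in the stage difference, which quantile normalization of the scanner files moved by -0.16. Signal over background limits Mmp3, Mmp13 and Adamts4, which were well above background on 1 of 2 arrays of each skin group.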
